A study of Mus musculus with 6 samples.

Results

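The genes described here are 10 enzymes that make, modify or consume nicotinamide adenine dinucleotide (NAD), taken by name from the 51912 genes of a mouse RNA sequencing table. All 10 were found, and they are Nampt, Naprt, Nmrk1, Nmnat1, Nmnat3, Nadsyn1, Nadk, Nnt, Parp1 and Parp2. The samples were mouse bladder tumor organoids, which are small cultures grown in a gel from tumor cells, from the strain C57BL/6. SRT1720, a compound developed to activate SIRT1, a deacetylase that needs NAD, was given in 3 libraries, and vehicle in the other 3. The labels used here give no dose, duration, age, tumor genotype or composition of the vehicle. They do not say whether replicates are separate cultures or animals, and the p-values therefore describe the spread among these 6 libraries, which may be technical in part.

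NAD carries electrons between dehydrogenases and is also used up as a substrate by sirtuins and poly(ADP-ribose) polymerases, which release nicotinamide. Most mammalian cells rebuild NAD from that nicotinamide through Nampt, while other routes start from nicotinic acid, nicotinamide riboside or tryptophan, and all of them pass through an adenylyltransferase of the Nmnat family. Part of the NAD is phosphorylated to NADP, whose reduced form serves biosynthesis and antioxidant defence. The series title names an axis of SIRT1 and hypoxia-inducible factors, so the supply of the substrate of SIRT1 is one question that these mRNA levels touch, although they measure neither NAD nor enzyme activity.

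Levels are given as the authors' TPM, a read count divided by gene length and scaled to the library. The columns sum to 161231 to 171577, below the fixed total of TPM as usually defined. A value of 1 here is therefore more than 1 in usual TPM, and low levels are low on this scale only. Whole reads recovered from these values amounted to 18248722 to 22837770 per library. Of the epithelial markers Epcam, Cdh1, Krt7, Krt8, Krt18 and Krt19, all 6 had a mean of at least 1 TPM. The libraries of each group were unlike each other. Basal urothelial markers, which include Krt5 and Krt14, summed to 794 to 1950 TPM in 4 libraries but to 61.9 TPM in SRT1720 1 and 44.7 TPM in Vehicle 2. Of the luminal urothelial markers, 3 of 8 had a mean of at least 1 TPM (Foxa1, Upk1b and Gata3), the list summed to 11.5 to 36.3 TPM, and the uroplakin Upk3a was listed at 0 in all libraries. Markers of other cell types were low, with 0 of 8 fibroblast, 0 of 6 endothelial, 0 of 5 smooth muscle and 2 of 8 leukocyte genes at a mean of 1 TPM or more. Fibroblast markers summed to 2.82 TPM in SRT1720 2 and 4.19 TPM in Vehicle 1, and to 0.58 TPM or less elsewhere. Smooth muscle markers summed to 4.34 TPM in Vehicle 3 and to 0.3 TPM or less elsewhere. The leukocyte markers summed to 11.5 TPM for SRT1720 2 and 16.1 TPM for Vehicle 1, of which Lyz2 gave 10.5 and 14.3 TPM, while the remaining libraries had 1.04 to 3.11 TPM and no Lyz2. On chromosome 3 the genes of both libraries numbered 3 were low, with median deviations from the group mean of -0.39 (SRT1720) and -0.41 (Vehicle) on the log2(TPM + 1) scale. No member lies there.

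In TPM, 4 members lay above 5, 5 members between 0.1 and 1, and Nnt below both. Nadk had a mean of 10.9 ± 1.66 TPM over the 6 libraries (SD, n = 6), Nampt 9.51 ± 1.18 TPM, Parp1 8.58 ± 0.97 TPM and Parp2 6.71 ± 1.35 TPM. From Nadk to Parp1, neighbours in this order differed by less than the SD of the more variable gene, and Parp1 exceeded Parp2 in every library, by 1.02-fold to 1.64-fold. Below them came Nmnat1 at 0.872 ± 0.33 TPM, Nmrk1 at 0.569 ± 0.17 TPM, Nadsyn1 at 0.528 ± 0.07 TPM, Nmnat3 at 0.417 ± 0.18 TPM and Naprt at 0.268 ± 0.09 TPM. Each neighbouring pair among these 5 genes also differed by less than the larger SD. Nnt was far below the others at 0.0127 ± 0.0077 TPM.

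**Figure D1:**
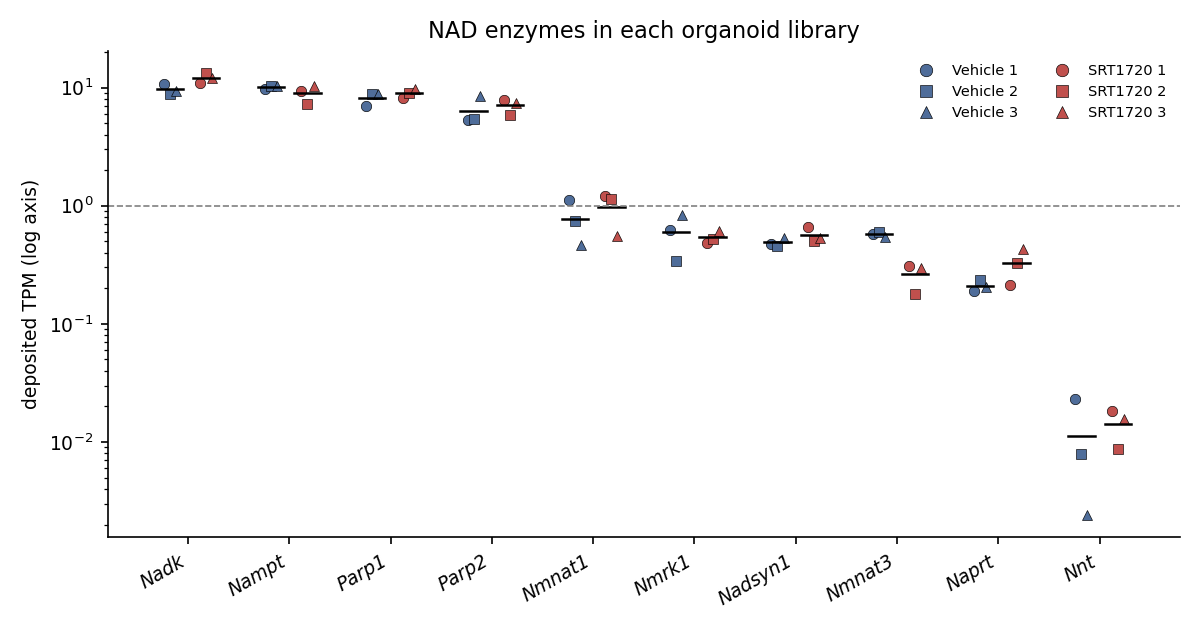
Deposited TPM (log axis) of the 10 NAD enzymes, ordered by mean, with 1 point per library, black bars for group means and a dashed line at 1 TPM, the lowest mean at which a gene was tested. Nadk, Nampt, Parp1 and Parp2 lie above the line, Nmnat1, Nmrk1, Nadsyn1, Nmnat3 and Naprt mostly below it, and Nnt between 0.0024 and 0.0231 TPM.

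The gene lengths behind these values were longer than the merged exons of the gene for 88.9% of 10094 well-covered genes with overlapping exons, so levels of different genes were also set as RPKM, reads per kilobase of merged exons in GENCODE M21, scaled to the recovered reads of the library. On that scale Nadk was at 52.3 ± 8.0 RPKM (SD, n = 6), Parp1 at 32.0 ± 3.6 RPKM and Nampt at 28.4 ± 3.5 RPKM. Nmnat1 was at 3.57 ± 1.3, Nadsyn1 at 3.01 ± 0.41, Nmrk1 at 1.97 ± 0.57 and Nmnat3 at 1.71 ± 0.72 RPKM. Parp2, at 8.53, and Naprt, at 0.557 RPKM, are lower limits, because the length recovered for both may be a fraction of the one the authors used. Nadk stayed the highest and Nnt, at 0.0376 RPKM, the lowest, while Nampt and Parp1 changed places, as did Nmrk1 and Nadsyn1.

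Promoters are shown for Nadk and Nmnat3, whose deposited values did not overlap between SRT1720 and vehicle, and for Nampt, which leads salvage. RefSeq promoter windows on GRCm38.p6 were found for 8 of 10 members, with 10 windows in all, and the 250 bases before the start are printed 5′ to 3′ on the gene's strand. Capitals mark the E-box CACGTG, read by clock and MYC factors, and the hypoxia response cores ACGTG and GCGTG, each on either strand. All 3 starts lie inside the gene as GENCODE M21 draws it, downstream of its first base. ACGTG also lies within CACGTG on each strand, so an E-box counts under both motifs, and under ACGTG once per strand.
Nampt, chr12:32820085-32820334, plus strand: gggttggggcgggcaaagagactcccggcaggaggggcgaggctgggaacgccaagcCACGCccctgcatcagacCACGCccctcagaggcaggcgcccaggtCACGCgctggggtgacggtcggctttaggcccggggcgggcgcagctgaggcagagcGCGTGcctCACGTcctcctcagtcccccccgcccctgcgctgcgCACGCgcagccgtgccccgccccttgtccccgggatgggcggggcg
Nadk, second start, chr4:155563565-155563814, plus strand: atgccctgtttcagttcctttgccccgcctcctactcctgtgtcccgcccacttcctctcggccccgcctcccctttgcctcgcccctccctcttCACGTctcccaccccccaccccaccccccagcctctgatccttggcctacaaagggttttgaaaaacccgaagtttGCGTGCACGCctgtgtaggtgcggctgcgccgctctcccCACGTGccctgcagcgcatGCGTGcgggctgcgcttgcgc
Nmnat3, chr9:98296320-98296569, plus strand: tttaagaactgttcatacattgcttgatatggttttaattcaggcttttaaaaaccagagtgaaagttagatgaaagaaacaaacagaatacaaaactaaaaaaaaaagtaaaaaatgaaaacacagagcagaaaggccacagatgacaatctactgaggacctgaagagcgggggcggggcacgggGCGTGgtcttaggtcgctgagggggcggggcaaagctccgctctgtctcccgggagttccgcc

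The first Nadk window, chr4:155562131-155562380, is not printed and held none of these motifs. The window at the second start held an E-box that begins 40 bases before the start. ACGTG had 3 matches, at 155, 40 and 39 bases, of which those at 40 and 39 are that E-box read on each strand. GCGTG had 3 matches. The Nampt window held no E-box, 1 match to ACGTG and 5 to GCGTG, and 75.6% of its bases were G or C. The Nmnat3 window held 1 match to GCGTG, 63 bases before the start, and its G and C content was 45.6%. Over the members' windows CACGTG was found in 3 of 10, those of Nadk, Parp1 and Parp2, against 6.02% of 32851 RefSeq windows of the same length. ACGTG was found in 4 of 10 windows, against 16.6%, and GCGTG in 6 of 10, against 28.2%. The GC box GGGCGG, which is not capitalised, was found in 8 of 10, against 32.7%, so a higher share than in all windows was not particular to the E-box and hypoxia motifs. The G and C content of the members' windows was 45.6% to 75.6%, against a median of 52.4% over all promoter windows. The windows of Nmnat1 overlap each other, so the 10 are not all separate sequences. A match gives letters only, and binding was not measured.

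By limma with Benjamini-Hochberg adjustment over the 9287 genes that averaged 1 TPM or more, 0 genes were called higher or lower with SRT1720 (0.0%), and 0 of the 4 members tested. Limma gave 1153 genes an unadjusted p under 0.05 (12.4%), 730 of them higher (7.86%) and 423 lower (4.55%), and none of these was a member. After median-of-ratios scaling the split was 581 higher and 548 lower. The log2 fold change was above 0 in 3 of 4 members tested, against 54.8% of all genes, with a median of 0.13 beside 0.035 for all genes tested. That median was 0.033 without Vehicle 1 and 0.225 without Vehicle 3. Voom on the recovered reads also called 0 genes, with 1125 at an unadjusted p under 0.05. These fits treated the 6 libraries as unpaired, although some were alike across groups. In an exact permutation test of 3 libraries against 3, the smallest two-sided p is 0.1. In bulk RNA a smaller share of cells that express a gene and less RNA per cell cannot be told apart.

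Nampt, the rate-limiting enzyme of nicotinamide salvage and a known target of the circadian clock, was the main salvage enzyme by mRNA. Its level in SRT1720 1, 2 and 3 was 9.33, 7.24 and 10.3 TPM, compared with 9.72, 10.3 and 10.2 TPM for Vehicle 1, 2 and 3. The Vehicle libraries lay close together, and of the SRT1720 libraries only SRT1720 2 stood clearly below them. On the log2(TPM + 1) scale the fold change, SRT1720 minus Vehicle, was -0.17 (SE 0.17, 95% interval -0.58 to 0.24, limma adjusted p = 0.756). Without SRT1720 2 the log2 fold change of Nampt was -0.04. Nampt (ENSMUSG00000020572) lies on chromosome 12 of GRCm38 from 32819545 to 32853349, and its values rest on 2389 to 3354 reads per library. The lincRNA Gdap10 lies inside it on the same strand and was at 0.17, 0.149 and 0.359 TPM with SRT1720 against 0.397, 0.483 and 0.466 TPM with vehicle, so reads may be shared between them.

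The other entry points of salvage were low. Naprt, which starts the route from nicotinic acid, was at 0.215, 0.329 and 0.432 TPM with SRT1720 and at 0.189, 0.236 and 0.205 TPM with vehicle. Only SRT1720 1 lay among the Vehicle libraries, and the exact permutation test gave p = 0.2. These values rest on at least 20 to 45 reads per library, and Naprt shares 277 bases with Eef1d on the same strand, where reads may be split. Naprt (ENSMUSG00000022574) lies on chromosome 15 of GRCm38 from 75890956 to 75894481. Nampt exceeded Naprt 22.0-fold to 51.5-fold in TPM in every library. Nmrk1, the kinase of nicotinamide riboside, was at 0.482, 0.524 and 0.609 TPM with SRT1720 and at 0.621, 0.343 and 0.836 TPM with vehicle. The SRT1720 libraries of Nmrk1 lay inside the range of the Vehicle libraries (exact permutation p = 0.7), and Nmrk1 (ENSMUSG00000037847) lies on chromosome 19 from 18631950 to 18652428.

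The enzymes that complete the dinucleotide are Nmnat1, whose protein is nuclear, and Nmnat3, whose protein is found in mitochondria. For Nmnat3 the SRT1720 libraries 1, 2 and 3 had 0.31, 0.179 and 0.299 TPM, while Vehicle 1, 2 and 3 had 0.572, 0.598 and 0.543 TPM. Every SRT1720 library lay below every Vehicle library, by at least 0.23 TPM, and the Vehicle mean was 2.17-fold that with SRT1720. The recovered reads were 133, 80 and 131 with SRT1720 and 268, 224 and 222 with vehicle. With a mean under 1 TPM Nmnat3 was not among the genes tested, and the exact permutation test gave its smallest possible p = 0.1. Among 5924 genes with a mean of 0.1 to 1 TPM the groups did not overlap in 14.7%, and in 7.26% with SRT1720 lower, against 1 of 5 members in that range. In a voom fit of all genes averaging 20 reads or more, chosen after the values were seen, the log2 fold change of Nmnat3 was -1.16 (SE 0.31, limma-voom adjusted p = 0.38). The groups also stayed apart after median-of-ratios scaling. Nmnat3 (ENSMUSG00000032456) lies on chromosome 9 of GRCm38 from 98287435 to 98420438 and contains the processed pseudogene Gm28530 on the same strand, which was at 0.221 TPM or less.

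Nmnat1 was at 1.21, 1.14 and 0.558 TPM with SRT1720 and at 1.12, 0.735 and 0.467 TPM with vehicle. Both groups spread widely and overlapped (exact permutation p = 0.5), and the library numbered 3 was the lowest of each group. The TPM ratio of Nmnat1 to Nmnat3 was 3.89, 6.41 and 1.86 with SRT1720 and 1.96, 1.23 and 0.862 with vehicle. Vehicle 1 exceeded SRT1720 3, so the ratio overlapped between groups as well. Tmem274, which lies inside Nmnat1 on the other strand, was at 0.0414 TPM or less. Nmnat1 (ENSMUSG00000028992) lies on chromosome 4 from 149467572 to 149485202. Nadsyn1, which amidates the nicotinic acid form of the dinucleotide to NAD, was at 0.662, 0.506 and 0.533 TPM with SRT1720 and at 0.475, 0.46 and 0.535 TPM with vehicle. Its groups overlapped through Vehicle 3 (exact permutation p = 0.3), and Nadsyn1 (ENSMUSG00000031090) lies on chromosome 7 from 143795584 to 143822849.

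Nadk, the cytosolic kinase that turns NAD into NADP, was the most abundant member, and the window printed for its second start was the one of the 3 with an E-box. Libraries SRT1720 1, 2 and 3 gave 10.9, 13.3 and 12.1 TPM for Nadk, and Vehicle 1, 2 and 3 gave 10.8, 8.88 and 9.33 TPM. The groups did not overlap, as in 19.9% of all genes tested (12.1% with SRT1720 higher and 7.75% lower), but the gap between SRT1720 1 and Vehicle 1 was 0.11 TPM. After median-of-ratios scaling these libraries were at 10.2 and 10.6 TPM and the groups overlapped. Nadk had a log2 fold change of 0.30 (SE 0.16, 95% interval -0.09 to 0.68, limma adjusted p = 0.5), a 1.25-fold ratio of mean TPM. Nadk (ENSMUSG00000029063) lies on chromosome 4 of GRCm38 from 155562378 to 155591001, and its values rest on 2921 to 5222 reads per library. The TPM ratio of Nampt to Nadk was 0.855, 0.545 and 0.844 with SRT1720 and 0.899, 1.16 and 1.09 with vehicle. Every SRT1720 library had a lower ratio than every Vehicle library, though SRT1720 1 (0.855) and Vehicle 1 (0.899) were close. This comparison was made after the values were seen, and how often ratios of other gene pairs separate the groups was not tested.

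**Figure D2:**
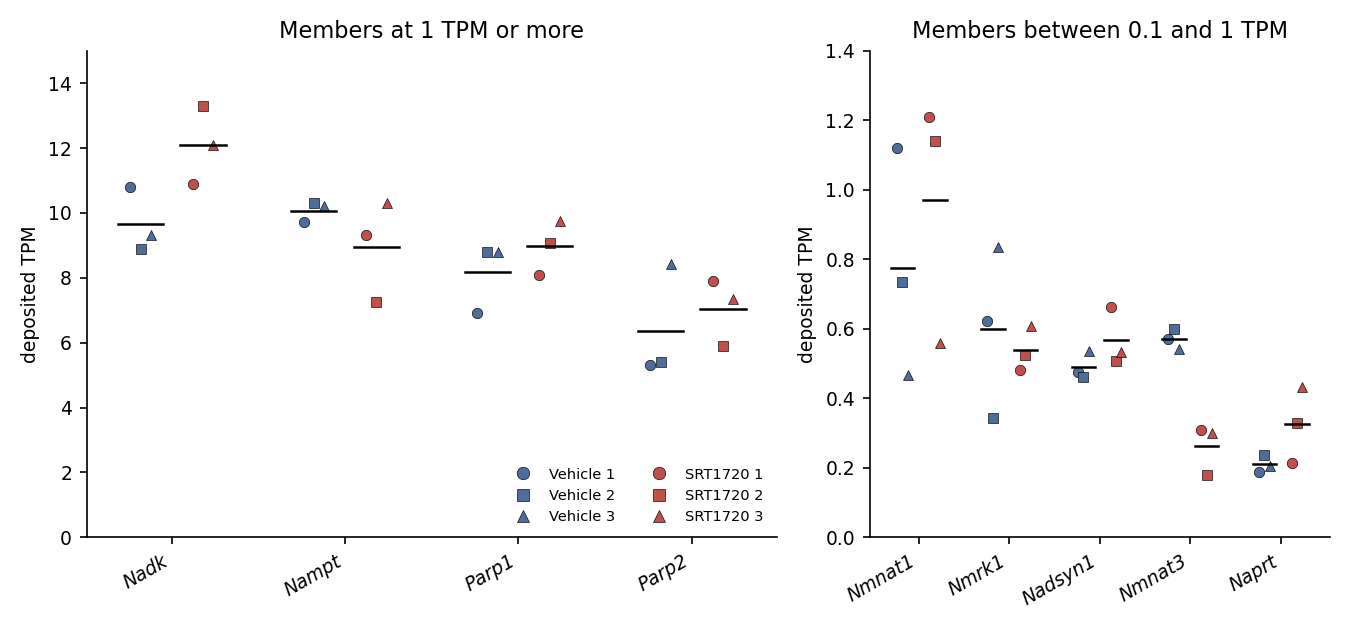
Deposited TPM of the members at 1 TPM or more (left) and between 0.1 and 1 TPM (right), with 1 point per library and black bars for group means. Nadk and Nmnat3 are the members whose groups do not overlap, Nadk higher with SRT1720 by 0.11 TPM at the closest libraries and Nmnat3 lower by 0.23 TPM.

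Nnt, the transhydrogenase of the inner mitochondrial membrane that makes NADPH from NADH, was near 0 in every library. Its levels were 0.0183, 0.00879 and 0.0157 TPM with SRT1720 and 0.0231, 0.00788 and 0.0024 TPM with vehicle, which came from 8, 4 and 7 reads and from 11, 3 and 1 reads. The groups overlapped, and at such counts no fold is given. As background, the substrain C57BL/6J carries a deletion within Nnt, while the labels name C57BL/6 with no substrain. Whether these organoids carry the deletion was not tested, since a value per gene does not show single exons. GENCODE M21 lists Nnt under 2 overlapping gene IDs on chromosome 13, and these values are for ENSMUSG00000025453, from 119335448 to 119408997 on GRCm38. The other ID shares 73425 bases with it on the same strand and has no values here. How reads that fit both IDs were counted is not known, so the low level may depend on it, which was not tested.

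Parp1 and Parp2 sense DNA breaks and build chains of ADP-ribose from NAD. Parp1, which accounts for most of this activity in mammalian cells, was at 8.1, 9.06 and 9.76 TPM with SRT1720 and at 6.92, 8.81 and 8.81 TPM with vehicle. The ranges overlapped, with Vehicle 1 the lowest library. Parp1 had a log2 fold change of 0.12 (SE 0.17, 95% interval -0.27 to 0.52, limma adjusted p = 0.822), and it was 0.02 without Vehicle 1. Parp1 (ENSMUSG00000026496) lies on chromosome 1 of GRCm38 from 180568924 to 180601254, and holds the miRNA gene Mir6904 on the same strand.

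Parp2 varied more than Parp1 within each group. With SRT1720, libraries 1, 2 and 3 had 7.9, 5.9 and 7.35 TPM of Parp2, and with vehicle they had 5.31, 5.39 and 8.42 TPM. The highest value of all was that of Vehicle 3. Parp2 had a log2 fold change of 0.15 (SE 0.21, 95% interval -0.37 to 0.66, limma adjusted p = 0.841), and it was 0.34 without Vehicle 3, 0.25 without SRT1720 2, 0.07 without SRT1720 1, 0.05 without Vehicle 1 and 0.06 without Vehicle 2. It turned to -0.02 without both SRT1720 1 and Vehicle 2, the libraries low in basal markers. Parp2 (ENSMUSG00000036023) lies on chromosome 14 of GRCm38 from 50807841 to 50821301. The median deviation of 334 genes on chromosome 14 from their group mean was 0.05, -0.18 and 0.14 on the log2(TPM + 1) scale in SRT1720 1, 2 and 3, where Parp2 was at 0.15, -0.21 and 0.06. In Vehicle 1, 2 and 3 the chromosome was at -0.18, -0.03 and 0.21, and Parp2 at -0.20, -0.18 and 0.38. The median and Parp2 had the same sign in every library, and the part of the chromosome in the spread of Parp2 was not tested. Parg, which removes the chains that Parp1 and Parp2 build, lies on chromosome 14 too and was at -0.11, -0.11 and 0.22 in SRT1720 1, 2 and 3 and -0.21, -0.13 and 0.33 in Vehicle 1, 2 and 3 on the same scale, below 0 in SRT1720 1 where Parp2 was above. Parp4, another PARP family gene of chromosome 14, was at 0.07, -0.15 and 0.08 and at -0.15, 0.11 and 0.04, opposite to Parp2 in Vehicle 2. Nudt13, a NADH hydrolase gene there, was at 0.21, -0.06 and -0.16 and at -0.24, -0.05 and 0.29, opposite to Parp2 in SRT1720 3. On the chromosomes of Nadk, Parp1 and Nampt (4, 1 and 12) the medians lay between -0.08 and 0.13.

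**Figure D3:**
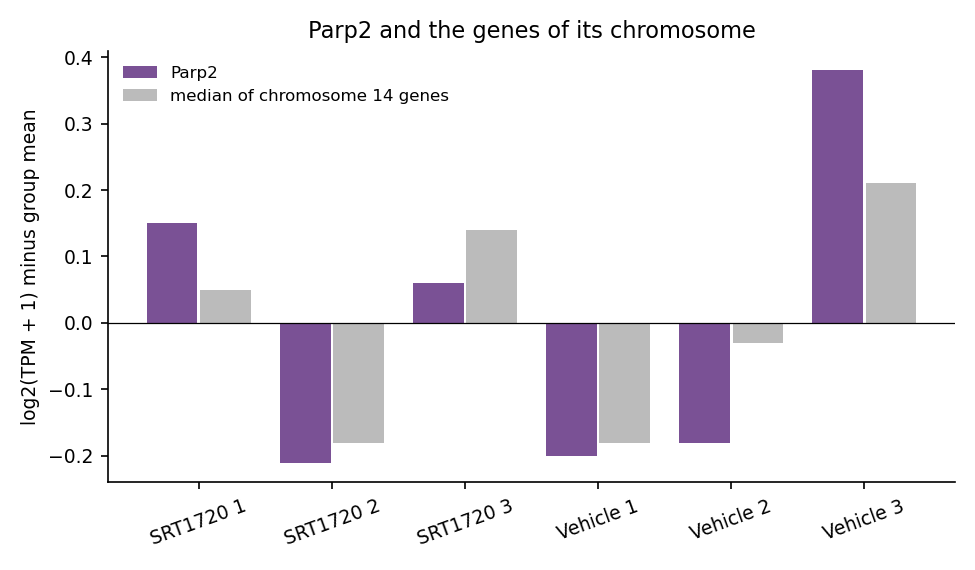
Deviation from the group mean on log2(TPM + 1) for Parp2 and for the median of 334 chromosome 14 genes, by library. Both are below 0 in SRT1720 2, Vehicle 1 and Vehicle 2 and above 0 in the other libraries, with the highest values, 0.38 and 0.21, in Vehicle 3.

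For the members with a mean of at least 5 TPM, the genes most like them were found by the root mean square difference of centred log2(TPM + 1) over the 6 libraries. Nearest to Parp1 were Prpf4b, Adprhl2 and Ldb1, at differences of 0.025, 0.053 and 0.055, against a spread of Parp1 itself of 0.139. Nearest to Parp2 were Elp3, Tctn3 and Csrp2 at 0.044, 0.057 and 0.063, against a spread of 0.231. Nearest to Nadk were Urgcp, the processed pseudogene Gm7511 and Fancf at 0.036, 0.036 and 0.038, against 0.184, and nearest to Nampt were Lrrc8c, Nudcd1 and Tmed10 at 0.046, 0.047 and 0.061, against 0.16. With 6 libraries and 9287 genes, close matches of this kind are a description of these libraries only.

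Further genes of NAD metabolism were taken from 10 lists with 63 genes, of which 62 were in the table and 32 reached a mean of 1 TPM. None passed limma's adjusted test, 17 had log2 fold changes above 0 and 15 below, and the median was 0.04 beside 0.035 for all genes tested. The groups did not overlap in 4 of the 32, which is 12.5% against 19.9% of all genes. Synthesis from tryptophan was low, with 0 of 9 genes at a mean of 1 TPM. Afmid, which hydrolyses formylkynurenine, was its highest gene, at 0.162 ± 0.054 TPM under SRT1720 and 0.349 ± 0.11 TPM under vehicle (SD, n = 3 each, exact permutation p = 0.1). Ido1, which opens the tryptophan ring, averaged 0.0442 TPM over the 6 libraries. Qprt, through which that route enters the NAD pool, was at 0.0246 TPM or less, and Kynu was listed at 0 in all.

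Of the further NAD kinases and salvage enzymes, Nadk2, the mitochondrial NAD kinase, was at 0.746, 0.963 and 0.982 TPM with SRT1720 and at 1.41, 1.04 and 1.55 TPM with vehicle. The groups were apart by 0.06 TPM, in the opposite direction to Nadk, and the log2 fold change was -0.29 (SE 0.14, limma adjusted p = 0.469). Nmnat2, the family member best known from neurons, was at 0.106 TPM or less, and Nmrk2 was listed at 0 in all libraries. Among transporters, Slc29a1, a nucleoside carrier that can import nicotinamide riboside, was at 3.25, 2.81 and 2.98 TPM with SRT1720 and at 2.37, 2.06 and 1.83 TPM with vehicle. The groups were apart by 0.44 TPM (log2 fold change 0.38, SE 0.13, limma adjusted p = 0.355). Slc25a51, the mitochondrial NAD carrier, was at 2.99 ± 0.27 against 3.32 ± 0.31 TPM (SD, n = 3 each), and Slc16a1, a monocarboxylate carrier, at 15.8 ± 1.4 against 13.1 ± 4.8 TPM. Slc16a1 lies on chromosome 3, and its low Vehicle value was that of Vehicle 3.

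Macrod1, a mitochondrial hydrolase that removes single ADP-ribose units, showed the largest difference in size among the 32 further genes tested. Macrod1 stood at 1.64, 1.7 and 4.57 TPM for SRT1720 1, 2 and 3 and at 10.7, 6.16 and 13.1 TPM for Vehicle 1, 2 and 3. Every Vehicle library lay above every SRT1720 library, with a 3.78-fold higher mean, yet values within each group differed by more than a factor of 2. Its log2 fold change was -1.63 (SE 0.38, limma adjusted p = 0.279). The gene contains Flrt1 on the other strand, which was at 0.633 TPM or less. The other tested genes of ADP-ribose removal, Oard1, Parg and Adprhl2, overlapped between groups, with Oard1 at 6.41 ± 1.9 against 5.51 ± 1.3 TPM (SD, n = 3 each).

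**Figure D4:**
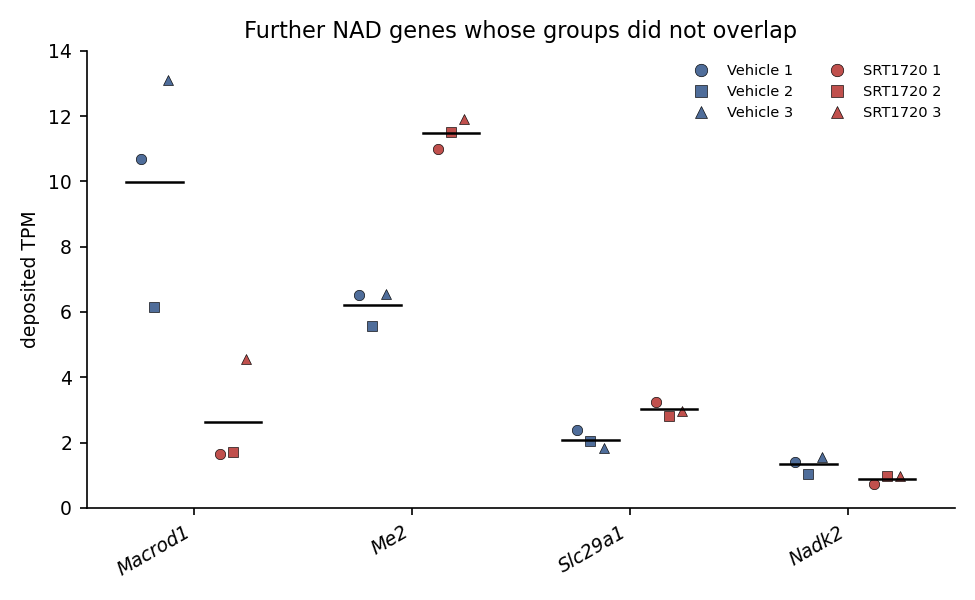
Deposited TPM of the further NAD genes tested whose groups do not overlap, with 1 point per library and black bars for group means. Macrod1 is at 1.64 to 4.57 TPM with SRT1720 and 6.16 to 13.1 TPM with vehicle, and Me2 at 11 to 11.9 against 5.56 to 6.56 TPM.

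Of the further PARP family genes, 9 of 13 were tested, with 5 above 0 and 4 below, and the groups overlapped in all 9. Parp6, under the filter, did not overlap, at 0.56, 0.439 and 0.511 TPM with SRT1720 against 0.791, 0.762 and 0.794 TPM with vehicle (exact permutation p = 0.1). The groups also did not overlap in 14.7% of all genes with a mean of 0.1 to 1 TPM, and in 7.26% with SRT1720 lower. Tnks2, a tankyrase, was the highest at 10.8 ± 0.41 against 11.2 ± 0.51 TPM (SD, n = 3 each). Tiparp, an ADP-ribosyl transferase induced by the aryl hydrocarbon receptor, was at 2.96 ± 0.64 against 6.22 ± 4.8 TPM, with 11.7 TPM in Vehicle 1 alone. It lies on chromosome 3, and its lowest library in each group was the one numbered 3 (2.3 TPM with SRT1720 and 2.58 TPM with vehicle). Of the sirtuins, the other main consumers, 3 of 7 were tested and overlapped between groups, with Sirt2 at 1.88 ± 0.22 against 2.13 ± 0.34 TPM and Sirt6 at 1.88 ± 0.18 against 1.76 ± 0.13 TPM. Sirt1 itself, under the filter, was at 1.29, 1.06 and 0.792 TPM with SRT1720 and at 0.728, 0.971 and 0.474 TPM with vehicle, and its groups overlapped (exact permutation p = 0.2). Its values rest on 335 to 956 recovered reads per library, over a recovered length of 13715 bases against 5331 bases of merged exons. The NAD glycohydrolases Cd38, Bst1 and Sarm1 had means of at most 0.093 TPM, and Nnmt and Aox1, which clear nicotinamide, of at most 0.262 TPM.

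Among NADPH-producing dehydrogenases 9 of 11 were tested, with 5 above 0, 4 below and 1 free of overlap. That gene was Me2, a mitochondrial malic enzyme that mainly uses NAD, so it fits the list's name only in part. Me2 was at 11, 11.5 and 11.9 TPM with SRT1720 and at 6.52, 5.56 and 6.56 TPM with vehicle, with tight libraries in both groups. Me2 had a log2 fold change of 0.79 (SE 0.15, limma adjusted p = 0.203). G6pdx, which commits glucose to the pentose phosphate pathway, was at 14.5 ± 2.3 against 12.4 ± 3.3 TPM (SD, n = 3 each), and Mthfd2, a folate dehydrogenase of mitochondria, at 16.4 ± 15 against 22.8 ± 9.7 TPM. Of the repair enzymes, Naxe is an epimerase that acts on damaged NAD(P)H hydrates. Naxe was at 15.2, 13.4 and 8.36 TPM with SRT1720 and at 24.4, 31.6 and 14.9 TPM with vehicle (log2 fold change -0.87, SE 0.33, limma adjusted p = 0.37). Naxd, which repairs the same hydrates, was at 1.91 ± 0.42 against 2.15 ± 0.23 TPM. The groups of Naxe overlapped through SRT1720 1 and Vehicle 3, and did not overlap after median-of-ratios scaling. Naxe lies on chromosome 3, and the library numbered 3 was the lowest of each group.

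**Figure D5:**
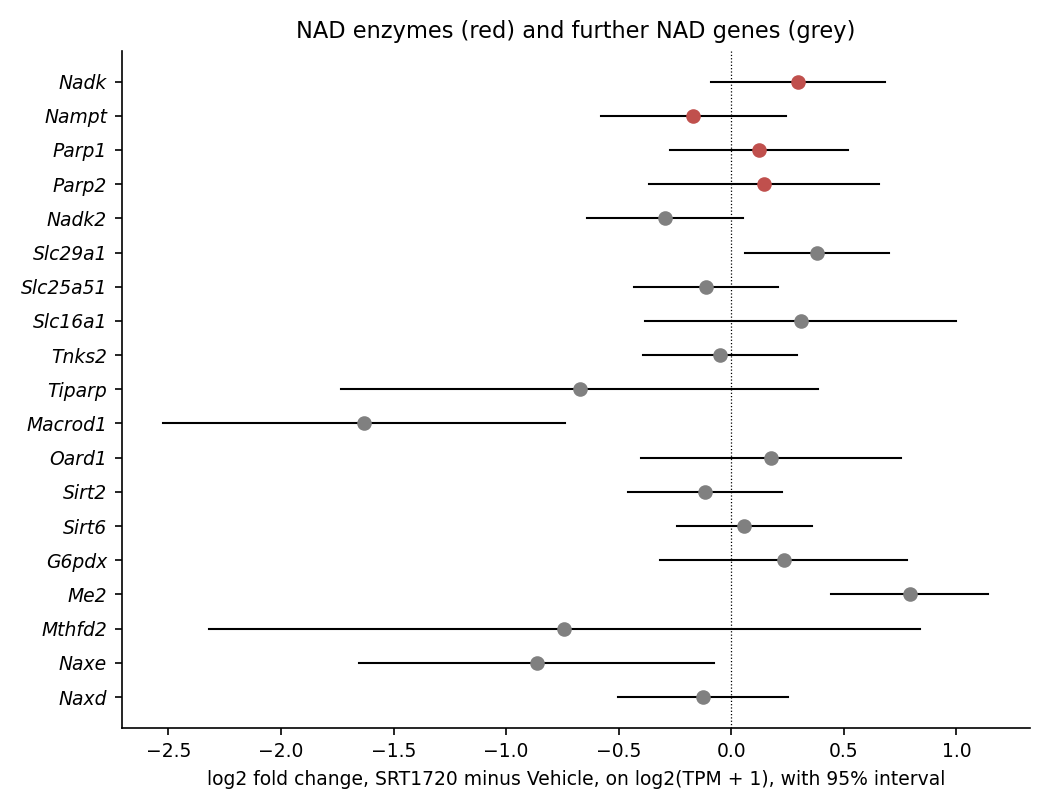
Log2 fold change on log2(TPM + 1), SRT1720 minus Vehicle, with 95% intervals from limma, for the 4 members tested (red) and 15 further NAD genes (grey). The members lie between -0.17 and 0.30 with intervals that include 0. Macrod1, at -1.63, Naxe, at -0.87, Me2, at 0.79, Mthfd2, at -0.74, and Tiparp, at -0.67, lie farther out. Of these, Mthfd2 (-2.32 to 0.84) and Tiparp (-1.73 to 0.39) also have intervals that include 0.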

How the data were processed

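Bulk RNA sequencing of 6 organoid libraries, 3 per group by the sample titles, was analysed from 1 table. The authors deposited values that the table's own name calls TPM, although the columns sum to between 161231 and 171577. Per the submitters' processing notes, STAR 2.6.0 and GRCm38 were used, their roles unstated. The counter, its strand setting, the handling of multiply mapped reads and the length definition were not given in the sources used here. Names and positions came from GENCODE M21 on GRCm38, which matched 51633 of 51912 IDs.

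For each gene the smallest whole-number length was found at which all values were whole reads within 0.01, with 1 read on 1 kb worth 0.017 to 0.0212 TPM. A length was found for all 27713 IDs above 0, and it can be a fraction of the authors' length, so that reads are then minimum counts. The length equalled the sum of all distinct exons in GENCODE M21 for 18.4% of 10094 well-covered genes with overlapping exons, and the merged exons for 0.1%. No pair of libraries within a group agreed within sampling noise (median chi-square per gene 12.0 to 25.16).

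Limma 3.58.1 in R 4.3.3 was fitted on log2(TPM + 1) with a mean trend, for genes averaging 1 TPM or more. Adjusted p-values (Benjamini-Hochberg) were called under 0.05. This scale understates the changes of low genes. Members under the filter were described by their values and an exact two-sided permutation test. The fit was also run on simulated libraries drawn independently of each other. The real libraries were alike across groups, so that run does not show how the fit performs here. Named genes were all members, and of each further list the 2 with the highest mean and those tested whose groups did not overlap, the 3 genes nearest each member above 5 TPM and genes overlapping a member, plus Parg, Parp4, Parp6, Nudt13, Qprt, Kynu, Nmrk2, Sarm1, Sirt1 and Lyz2, chosen after their values were seen. The members and lists were chosen with earlier results of these data known. Pnp had no matching row. Alternatives were the pseudocount, filter, scaling, variance model, library weights, replicate block, voom on recovered reads and leaving out libraries. Python 3.11.15, pandas 2.3.3, numpy 2.4.6, scipy 1.17.1 and matplotlib 3.10.9 were used.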

Additional observations from a re-analysis of the deposited data

How the results depend on the processing

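Under all 19 alternatives 0 genes were called higher and 0 lower, against 1153 genes at an unadjusted p under 0.05 in the fit as reported. That unadjusted count was 2028 with no filter, 498 at a mean of at least 5 TPM, 2056 with library weights, 523 without SRT1720 2 and 682 without both SRT1720 3 and Vehicle 3. The median log2 fold change of the members tested ranged from 0.033 (without Vehicle 1) to 0.225 (without Vehicle 3) when single libraries were left out. Median-of-ratios scaling gave 0.086, with the median of all genes at -0.005, and quantile normalization 0.073. The cause of these shifts was not tested. Nadk stayed between 0.23 and 0.37 on the log2 scale, with adjusted p from 0.217 to 0.895, and Nampt between -0.33 and -0.04. Macrod1 stayed between -2.03 and -1.42 (adjusted p 0.0662 to 0.834) and Me2 between 0.73 and 0.89 (adjusted p 0.0643 to 0.834). Signs that turned without both SRT1720 1 and Vehicle 2 were those of Parp2 (-0.021), Oard1 (-0.018) and Sirt6 (-0.03), and without both SRT1720 3 and Vehicle 3 that of Tnks2 (0.003). With library weights Sirt6 was at -0.002. Slc16a1 was at -0.013 without Vehicle 3, Oard1 at -0.018 without SRT1720 1 and Naxd at 0.003 without SRT1720 2, the other ends of their ranges over single libraries left out being 0.477, 0.333 and -0.194. Same-numbered libraries correlated at -0.20, -0.26 and 0.79 in their deviations from group means, so the numbers do not pair the libraries, and of same-numbered libraries only those numbered 3 were most like each other. SRT1720 1 correlated at 0.72 with Vehicle 2 and SRT1720 2 at 0.68 with Vehicle 1, a likeness in the data that no label gives, so no fit was blocked on it. What such a fit would call was not tested. The 0 genes called therefore hold for unpaired fits and for the block on replicate number only. With the replicate number as a block 0 genes were called, and Nadk had a limma adjusted p of 0.54. Each number holds a library of each group, so this block cannot change a log2 fold change. The members' median of 0.134 and the 0.30 of Nadk were therefore the same as without it by design. Naprt and Nnt rest on the fewest reads of the members, and what size of difference could be detected at their level was not tested.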
